A study of Mus musculus with 12 samples.

Results

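The genes described here encode enzymes that make or convert oxygenated derivatives of polyunsaturated fatty acids such as arachidonic acid. They are 5 lipoxygenases (Aloxe3, Alox12b, Alox12, Alox15 and Alox5), both prostaglandin-endoperoxide synthases or cyclooxygenases (Ptgs1 and Ptgs2), both prostaglandin D synthases (Ptgds and Hpgds) and a prostaglandin E synthase (Ptges). A gene counted as measured where a probe set of the array was annotated with its symbol alone, and the brightest such probe set over all 12 arrays stood for it. This gave 9 of the 10 genes, among 22180 genes in all. No probe set carried Ptgs1 alone, so Ptgs1 was not analysed here. The set was drawn up with results of these same arrays in view, and it holds Aloxe3 and Ptgds because they had been selected on their KO minus WT differences in log2 signal. Their values in that contrast are therefore a description with no test.

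The tissue was brown fat of male mice 10 weeks old, on standard chow. The 4 groups had 3 arrays each: Zbtb7b knockout (KO) mice at 4 °C for 4 h (KO cold), wild-type (WT) mice at 4 °C for 4 h (WT cold), KO mice at 22 °C (KO room temperature) and WT mice at 22 °C (WT room temperature). Zbtb7b encodes a zinc finger transcription factor, and the labels used do not say whether it was deleted in the whole body or in one cell type. The titles speak of biological replicates and another field of numbered pools. The number of animals behind an array is not given in the sources used here, and a p-value therefore reflects only how far the samples of a group spread, which may be technical.

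Lipoxygenases add oxygen to polyunsaturated fatty acids at a given carbon. The cyclooxygenases instead turn arachidonic acid into prostaglandin H2, which terminal synthases convert into prostaglandin D2, E2 and others that act on receptors of nearby cells. In fat, prostaglandins are known for effects on lipolysis and on the formation of thermogenic adipocytes. Aloxe3 and Alox12b are best known from the epidermis, where they act in turn on ceramide-bound linoleic acid to build the water barrier.

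The promoter windows of both prostaglandin D synthases are shown because these genes encode unrelated enzymes with the same product. Each is the 250 bases before the transcription start from the RefSeq table of assembly GRCm38.p6, written 5′ to 3′ on the gene's strand. The Ptgds window is chr2:25469750-25469999 on the minus strand, and the Hpgds window is chr6:65144731-65144980, also on the minus strand.
Ptgds: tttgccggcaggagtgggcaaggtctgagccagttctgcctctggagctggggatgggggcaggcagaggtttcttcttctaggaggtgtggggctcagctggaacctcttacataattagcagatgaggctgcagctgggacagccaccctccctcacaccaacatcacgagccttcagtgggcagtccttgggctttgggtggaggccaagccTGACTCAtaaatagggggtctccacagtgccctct
Hpgds: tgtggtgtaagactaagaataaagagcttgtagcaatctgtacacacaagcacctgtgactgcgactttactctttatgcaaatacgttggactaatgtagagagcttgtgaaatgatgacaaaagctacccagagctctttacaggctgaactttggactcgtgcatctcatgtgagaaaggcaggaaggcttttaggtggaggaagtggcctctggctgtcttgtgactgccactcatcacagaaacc
The capitals mark TGACTCA, the letters of an AP-1 site, which end 29 bases before the start of Ptgds. Those letters or their complement were held by 4.46% of 32851 promoter windows of the same length, and they were added to the search after the windows had been read. Of the 10 genes, 8 had a window in the table, namely all but Aloxe3 and Alox15, and only the Ptgds window held any of the motifs searched. The others, on both strands, were the E-box CACGTG (in 6.02% of all windows), the cAMP response element TGACGTCA (1.55%), the TATA letters TATAAA (12.4%) and the direct repeat 1 element of nuclear receptors (0.0335%). GC content was 58.4% for Ptgds and 45.2% for Hpgds, against a median of 52.4% over all windows, and a match of letters is a description only.

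Values are log2 signals after robust multi-array averaging (RMA), where a difference of 1 is a doubling of signal. Array medians lay between 2.63 and 2.83, and 7 of the 9 genes averaged under 4, close to those medians, so for them differences are given on the log2 scale with no fold. Levels of different genes are not ranked against each other, since probe sets differ in brightness. Differences carry the standard error of a limma model of all 12 arrays, and a gene passed where its p, adjusted by Benjamini-Hochberg over the 22180 genes of a comparison, was under 0.05. The Zbtb7b probe set read 2.96, 3.38 and 3.01 in KO cold and 4.36, 4.26 and 4.63 in WT cold. It read 3.62, 3.50 and 3.30 in KO room-temperature arrays and 4.47, 4.52 and 4.76 in WT room-temperature arrays, so the genotypes did not overlap. The description field gives the tissue as liver, and for most arrays, WT ones included, names the knockout of a different gene, against all other fields. Ucp1, the uncoupling protein that defines brown fat, read 11.55 to 12.95, and the hepatocyte gene Alb 1.21 to 2.75. A list of 12 skeletal muscle genes varied widely within groups, with a mean of 4.84 to 8.92 in KO cold, 5.66 to 8.43 in WT cold, 3.34 to 9.18 in KO room-temperature and 2.79 to 7.05 in WT room-temperature arrays. Replicate 3 of KO cold stood apart in neutrophil markers, at a list mean of 3.75 against 1.82 to 2.53 in the other 11 arrays, with 9 of the 11 markers at or under the array median on average.

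Ptgds was higher in KO than in WT brown fat at both temperatures, and Aloxe3 was higher in KO than in WT in the cold. In WT mice the cold was followed by higher Aloxe3 and lower Alox12, and in KO mice by much higher Aloxe3 and lower Hpgds. Alox12 and Hpgds also averaged lower with cold in the other genotype, and their cold responses did not differ between genotypes past the threshold. Of 21 other settings, the call was lost in 3 for Aloxe3 in WT, 4 for Alox12 in WT and 5 for Hpgds in KO. Alox12b, Alox15, Alox5, Ptgs2 and Ptges passed in none of the 5 comparisons. Fewer cells of a type and less RNA per cell cannot be told apart in these tissue samples.

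**Figure D1:**
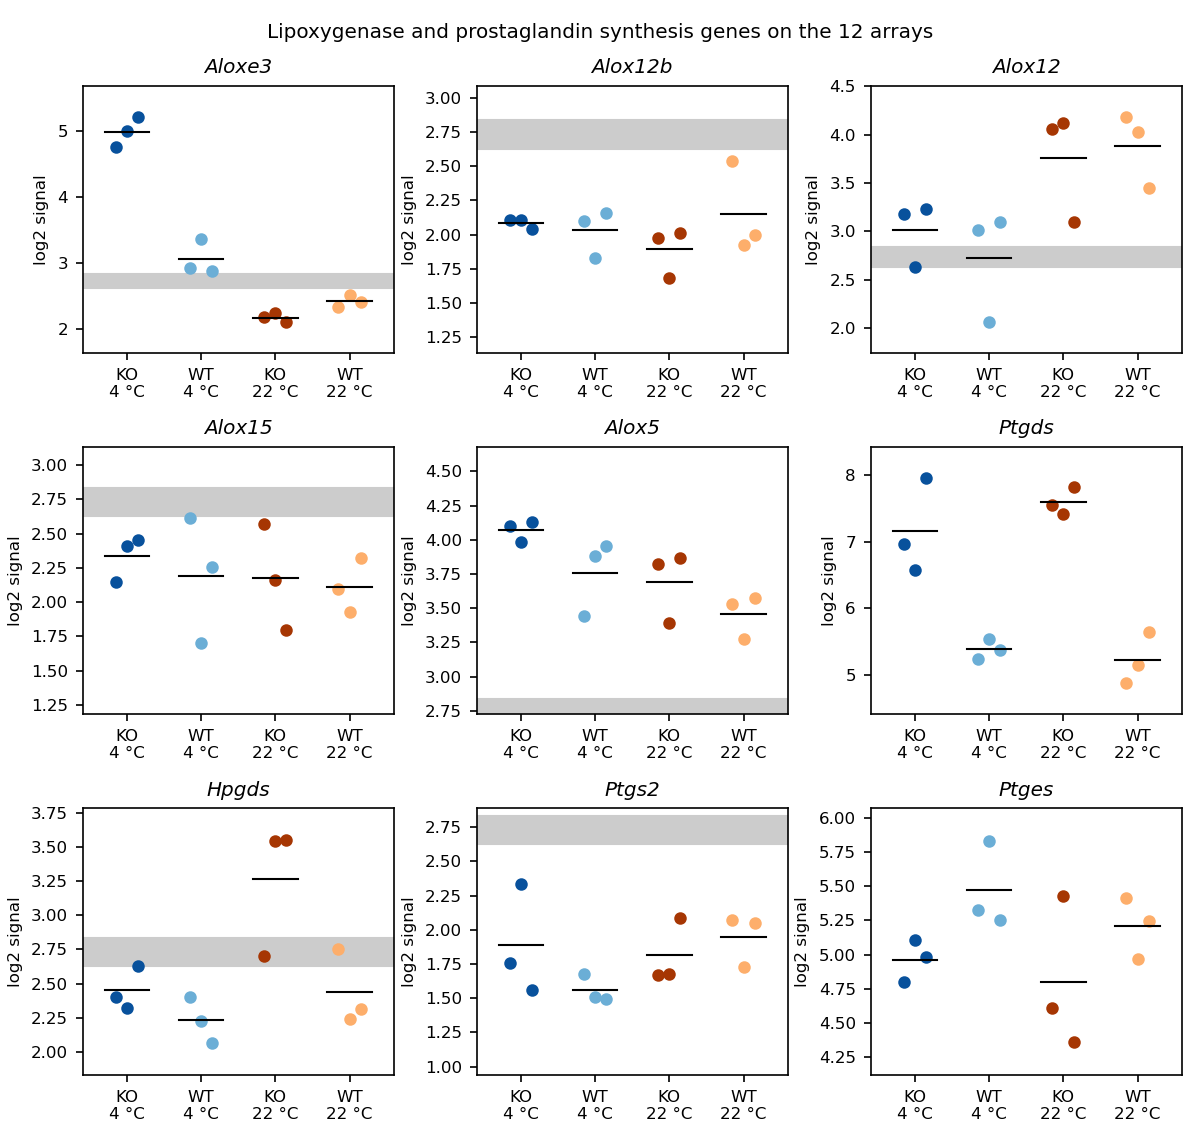
Log2 signal of the 9 measured genes on each of the 12 arrays. Each panel is a gene, points are arrays, bars are group means, and groups run KO cold, WT cold, KO room temperature and WT room temperature. Aloxe3 stood at 4.75 to 5.22 in KO cold and at 3.37 or less in the other groups, and Ptgds was higher on every KO than on every WT array.

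Aloxe3 encodes the epidermal hydroperoxide isomerase eLOX3, which converts fatty acid hydroperoxides to epoxyalcohols. Its log2 signal was 4.75, 5.0 and 5.22 in KO cold, and 2.92, 3.37 and 2.88 in WT cold. At room temperature it was 2.18, 2.24 and 2.10 in KO and 2.34, 2.51 and 2.41 in WT. All 3 KO cold arrays lay above every other array, WT cold lay between, and the KO room-temperature arrays were the lowest, below each WT room-temperature array. The group means were 4.99 ± 0.23 in KO cold, 3.06 ± 0.27 in WT cold, 2.17 ± 0.07 in KO at room temperature and 2.42 ± 0.09 in WT at room temperature (SD, n = 3 each). Room-temperature levels were thus under the array medians in both genotypes.

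The KO minus WT difference of Aloxe3 was 1.93 ± 0.16 (SE) in the cold and -0.25 ± 0.16 at room temperature. Cold minus room temperature was 2.82 ± 0.16 in KO, and the cold response of KO exceeded that of WT by 2.18 ± 0.22. These 4 values come with no p because the gene was chosen with them in view. In WT mice alone Aloxe3 rose in the cold by 0.64 ± 0.16, with no overlap between the groups (adjusted p = 0.0150). The same WT arrays entered the KO minus WT differences on which Aloxe3 was chosen, so this p is not independent of that choice. That call was lost without WT room-temperature replicate 1 (0.59, adjusted p = 0.0522), without WT cold replicate 2 (0.48, adjusted p = 0.0668) and with the muscle list as a covariate (0.58, adjusted p = 0.0503). Without KO cold replicate 3 the KO minus WT difference in the cold was 1.82. The epidermis list, with 10 of 11 markers measured, averaged 2.77, 2.52 and 2.60 in KO cold, 2.45, 2.32 and 2.41 in WT cold, 2.42, 2.26 and 2.51 in KO and 2.45, 2.31 and 2.42 in WT at room temperature. Of those markers, 7 were at or under the array median. Their median KO minus WT difference in the cold was 0.28. Between groups 0 of the 10 passed in any comparison. Of all genes 0.55% passed for KO minus WT at room temperature, 0.911% in the cold, 19.2% for cold in KO, 17.4% for cold in WT and 0.0271% for the interaction. The part of these markers in the Aloxe3 values was not tested.

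Alox12b encodes 12R-lipoxygenase, the enzyme that acts just before eLOX3 in the epidermis, and it lies next to Aloxe3 in the gene order of GRCm38.p6. It read 2.11, 2.11 and 2.04 in KO cold, 2.10, 1.83 and 2.16 in WT cold, 1.98, 1.69 and 2.02 in KO at room temperature and 2.54, 1.93 and 2.00 in WT at room temperature. All 12 values were under the array medians, KO and WT overlapped at both temperatures, and the KO cold arrays lay just above the KO room-temperature arrays. Its KO minus WT difference in the cold was 0.06 (95% interval -0.32 to 0.43, adjusted p = 0.922), and the difference between the cold responses was 0.32 (interval -0.21 to 0.84, adjusted p = 0.671).

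Alox12, the platelet-type 12S-lipoxygenase, fell in the cold in WT mice. It read 3.18, 2.64 and 3.23 in KO cold, 3.02, 2.06 and 3.09 in WT cold, 4.06, 4.12 and 3.09 in KO at room temperature and 4.18, 4.02 and 3.45 in WT at room temperature. Each WT cold array lay under each WT room-temperature array, whereas KO replicate 3 at room temperature lay among the KO cold arrays. The cold difference in WT was -1.16 ± 0.33 (adjusted p = 0.0311). It did not pass without WT room-temperature replicate 1 (-1.01, adjusted p = 0.109) or 2 (-1.09, adjusted p = 0.0941), without WT cold replicate 2 (-0.83, adjusted p = 0.129), or with every probe set tested on its own (adjusted p = 0.0605). In KO the difference was -0.74 ± 0.33 (adjusted p = 0.159), and without KO room-temperature replicate 3 it was -1.07 (adjusted p = 0.0431). The cold responses of the genotypes differed by 0.42 (interval -0.61 to 1.45, adjusted p = 0.781). The platelet list of 9 measured markers averaged 3.72 to 3.91 in KO cold, 3.48 to 3.68 in WT cold, 3.76 to 3.85 in KO and 3.47 to 3.67 in WT at room temperature. With cold 0 of 9 passed in either genotype, against 19.2% of all genes in KO and 17.4% in WT.

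Alox5, which starts leukotriene synthesis and is known chiefly from myeloid cells, read 4.10, 3.98 and 4.13 in KO cold and 3.44, 3.89 and 3.96 in WT cold. At room temperature it read 3.82, 3.39 and 3.87 in KO and 3.53, 3.28 and 3.57 in WT. Each KO cold array lay above each WT cold array, but the difference of 0.31 (interval -0.06 to 0.68, adjusted p = 0.439) did not pass. The cold differences were 0.38 in KO (adjusted p = 0.163) and 0.30 in WT (adjusted p = 0.281). A dimmer probe set of Alox5 gave smaller differences of 0.10 for KO minus WT in the cold and 0.19 for cold in KO. Alox15, the 12/15-lipoxygenase of the mouse, read 2.15 to 2.45 in KO cold, 1.70 to 2.61 in WT cold, 1.79 to 2.57 in KO at room temperature and 1.93 to 2.32 in WT at room temperature. Its 4 groups overlapped throughout, at levels under the array medians.

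In WT mice Aloxe3 and Alox12 passed with the cold, in opposite directions. Some macrophage markers passed in several of these contrasts. The list of 12 averaged 6.56, 6.93 and 7.34 in KO cold, 6.53, 6.88 and 6.64 in WT cold, 6.63, 6.83 and 6.66 in KO and 6.29, 5.91 and 6.17 in WT at room temperature. For KO minus WT 2 of the 12 passed as higher in the cold, where 0.361% of all genes did, and 0 at room temperature, where 0.266% did. The 2 were Cd68, by 0.99 ± 0.20, and Mrc1, by 1.05 ± 0.20. The median difference of the list in the cold was 0.16, and C1qa, C1qc, Csf1r and Lyz2 averaged lower in KO than in WT. With the cold, 4 of the 12 markers were higher and 1 lower in KO, against 8.34% and 10.8% of all genes. In WT 6 were higher, against 9.39%. Their part in the lipoxygenase values was not tested.

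Cyclooxygenase-2, encoded by Ptgs2 and known as the inducible form, was near background on all arrays. It read 1.76, 2.34 and 1.56 in KO cold, 1.68, 1.51 and 1.49 in WT cold, 1.67, 1.68 and 2.09 in KO at room temperature and 2.07, 1.73 and 2.05 in WT at room temperature. WT cold arrays were each lower than WT room-temperature arrays, with a difference of -0.39 that did not pass (interval -0.82 to 0.04, adjusted p = 0.220). KO minus WT was 0.33 in the cold (adjusted p = 0.489) and -0.14 at room temperature (adjusted p = 0.862).

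Ptgds encodes lipocalin-type prostaglandin D synthase, a secreted enzyme that also carries lipophilic molecules. Its log2 signal was 6.96, 6.58 and 7.97 in KO cold and 5.24, 5.54 and 5.37 in WT cold. At room temperature it was 7.56, 7.42 and 7.83 in KO and 4.87, 5.14 and 5.64 in WT. The lowest KO array exceeded the highest WT array by most of a log2 unit, and the KO cold arrays were the most spread. The means were 7.17 ± 0.72 in KO cold, 5.38 ± 0.15 in WT cold, 7.602 ± 0.211 in KO and 5.22 ± 0.39 in WT at room temperature (SD, n = 3 each). KO exceeded WT by 2.39 ± 0.30 at room temperature, which is 5.23-fold, and by 1.79 ± 0.30 in the cold, 3.45-fold. Without KO cold replicate 3, the highest of the KO arrays, the difference in the cold was 1.39, and with the muscle list as a covariate the differences were 2.33 at room temperature and 1.78 in the cold. Without WT cold replicate 1, 2 or 3 the difference in the cold was 1.71, 1.87 or 1.78.

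The cold itself did not change Ptgds past the threshold in either genotype. Cold minus room temperature was -0.43 ± 0.30 in KO (interval -1.09 to 0.22, adjusted p = 0.388) and 0.16 ± 0.30 in WT (interval -0.49 to 0.82, adjusted p = 0.791). Without KO cold replicate 3 the KO value was -0.83 (adjusted p = 0.0237). The same arrays entered the KO minus WT differences on which Ptgds was chosen, so these p-values are not independent of that choice. The difference between the cold responses was -0.60 ± 0.42 (interval -1.52 to 0.33). It is a description with no test, since Ptgds was chosen on its KO minus WT differences.

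Hpgds, the glutathione-dependent prostaglandin D synthase of mast cells and other blood-derived cells, fell in the cold in KO mice. It read 2.41, 2.33 and 2.63 in KO cold, 2.41, 2.23 and 2.07 in WT cold, 2.71, 3.54 and 3.55 in KO at room temperature and 2.75, 2.24 and 2.32 in WT at room temperature. KO replicates 2 and 3 at room temperature stood above all other arrays, while replicate 1 lay within the range of WT. The cold difference in KO was -0.81 ± 0.22 (adjusted p = 0.0227). It did not pass without KO room-temperature replicate 2 (-0.67, adjusted p = 0.0936) or 3 (-0.67, adjusted p = 0.0921), without KO cold replicate 1 (-0.79, adjusted p = 0.0590) or 2 (-0.75, adjusted p = 0.0742), or with those 6 arrays fitted alone (adjusted p = 0.0743). At room temperature KO exceeded WT by 0.83 ± 0.22 (adjusted p = 0.144), and without KO replicate 1 by 1.11 (adjusted p = 0.0247). In WT the cold difference was -0.20 (adjusted p = 0.625), and the cold responses differed by -0.61 (interval -1.30 to 0.08, adjusted p = 0.527).

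Mast cell markers, as the list of 10, averaged 4.12 to 4.18 in KO cold, 3.84 to 4.07 in WT cold, 4.01 to 4.17 in KO and 3.86 to 3.90 in WT at room temperature, and 3 of the 10 were at or under the array median. With the cold 1 of the 10 was lower in KO, where 10.8% of all genes were. At room temperature 0 passed between the genotypes, where 0.55% of all genes did. Their part in the Hpgds values was not tested.

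Ptges encodes microsomal prostaglandin E synthase 1, which makes prostaglandin E2. It read 4.80, 5.11 and 4.99 in KO cold and 5.33, 5.83 and 5.26 in WT cold. At room temperature it read 4.61, 5.43 and 4.36 in KO and 5.42, 4.97 and 5.25 in WT. Every KO cold array was under every WT cold array, by 0.51 ± 0.25 on average (KO minus WT -0.51, interval -1.05 to 0.04, adjusted p = 0.385), and this did not pass. The difference at room temperature was -0.41 (interval -0.96 to 0.14, adjusted p = 0.593), and the cold differences were 0.16 in KO (adjusted p = 0.734) and 0.26 in WT (adjusted p = 0.568).

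**Figure D2:**
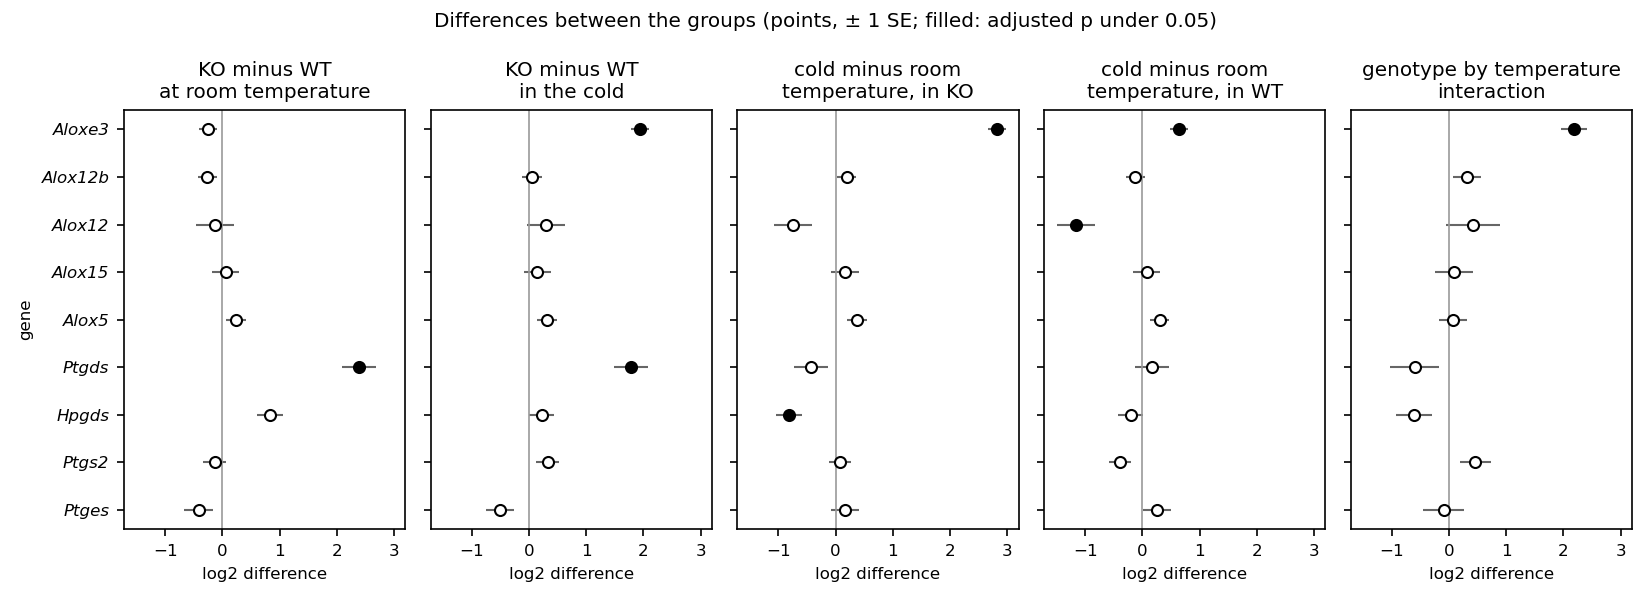
Log2 difference (x axis) of each measured gene (rows) in the 5 comparisons (panels), with bars of 1 standard error. Filled points passed an adjusted p of 0.05 and open points did not. Aloxe3 and Ptgds were chosen on their KO minus WT differences, so their filled points in those panels are a description and no test. The same holds for the filled points of Aloxe3 for cold in KO and for the interaction. Ptgds lay at 2.39 and 1.79 in the KO minus WT panels and Aloxe3 at 2.82 in the cold panel of KO, whereas most other points lay near 0.

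Of the 9 genes, 1 was higher and 0 were lower in KO than in WT at room temperature, where 0.55% of all genes passed (0.266% higher and 0.284% lower). In the cold 2 were higher and 0 lower, where 0.911% of all genes passed (0.361% higher and 0.55% lower). As Ptgds and Aloxe3 were chosen for these differences, the counts say nothing further about the set. With cold exposure 1 of 9 was higher and 1 lower in KO, against 19.2% of all genes passing (8.34% higher and 10.8% lower). In WT 1 was also higher and 1 lower, against 17.4% (9.39% higher and 7.98% lower). The shares for cold are close to those of all genes and are no result about these enzymes. In the comparison of the cold responses 1 of 9 passed, against 0.0271% of all genes, 6 in number (0.0225% with the larger response in KO and 0.00451% with the smaller), and that gene, Aloxe3, was among those known beforehand.

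At an unadjusted p under 0.05 stood 4 of the 9 genes for cold in KO, against 29.8% of all genes, and 2 of 9 for cold in WT, against 28.9%. Median differences over the 9 genes were 0.29 for KO minus WT in the cold and -0.13 at room temperature, against 0.01 over all genes in both. They were 0.16 for cold in KO and 0.08 for cold in WT, against 0.00 and -0.02 over all genes. Groups did not overlap for 4 of the 9 genes between KO and WT in the cold, where 20.6% of all genes did not overlap, and for 2 of 9 at room temperature, against 17%. Aloxe3 and Ptgds, chosen on KO minus WT, were among the 4 in the cold and were the 2 at room temperature. These counts and the KO minus WT medians therefore say nothing further about the set. For cold exposure the count was 4 of 9 in KO, against 31.6% of all genes, and 3 of 9 in WT, against 36.8%.

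Other genes of these pathways were taken from 8 lists of 80 genes, of which 71 were measured. In KO against WT, 2 were higher and 1 lower at room temperature, where 0.55% of all genes passed, and 1 was higher and 0 lower in the cold, where 0.911% did, with 16 of the 71 at an unadjusted p under 0.05 in the cold, against 14.4% of all genes. With cold exposure 6 rose and 9 fell in KO, against 19.2% of all genes passing, and 8 rose and 8 fell in WT, against 17.4%, so the totals for cold are near those of all genes. By limma 0 of the 71 differed in their cold response between the genotypes, with 9 at an unadjusted p under 0.05, against 10.5% of all genes. The medians of the 71 were 0.05, 0.07, -0.01 and -0.02 for KO minus WT at room temperature, KO minus WT in the cold, cold in KO and cold in WT.

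Enzymes that free or recapture arachidonate held the largest cold rise of these lists. Of 20 measured, 2 rose and 2 fell in KO, where 8.34% of all genes rose and 10.8% fell. In WT 3 rose and 1 fell, where 9.39% of all genes rose and 7.98% fell. Dagla, which makes the arachidonate-bearing endocannabinoid 2-arachidonoylglycerol, read 9.33, 9.56 and 9.21 in KO cold against 7.38, 7.16 and 7.10 in KO at room temperature. In WT it read 9.43, 9.29 and 9.26 in the cold against 7.67, 7.46 and 7.28 at room temperature. The cold groups stood well clear of the others in both genotypes, by 2.15 ± 0.14 in KO (adjusted p = 3.267e-06) and 1.86 ± 0.14 in WT (adjusted p = 1.333e-05). Its relative Daglb fell by 0.58 in KO (adjusted p = 0.0123; without KO room-temperature replicate 1, -0.51 and adjusted p = 0.0505) and by 0.72 in WT (adjusted p = 0.00390). Acsl4, which couples arachidonate to coenzyme A, rose by 0.89 in KO (adjusted p = 0.000300) and 0.83 in WT (adjusted p = 0.000535). Plaat3, a phospholipase of adipocytes, fell by 0.86 in KO (adjusted p = 0.00236), and the secreted phospholipase gene Pla2g12a rose by 0.71 in WT (adjusted p = 0.00495). In the other genotype neither passed. Plaat3 averaged 7.64 in WT cold and 8.01 in WT at room temperature, and Pla2g12a 7.655 in KO cold and 7.435 in KO at room temperature.

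In the leukotriene list, Alox5ap encodes FLAP, the protein that presents arachidonate to 5-lipoxygenase. It read 6.84, 6.59 and 6.71 in KO cold, 6.10, 6.70 and 6.55 in WT cold, 6.09, 6.35 and 6.43 in KO at room temperature and 5.45, 5.51 and 5.48 in WT at room temperature. The WT room-temperature arrays were the lowest. Alox5ap was higher in KO at room temperature by 0.81 ± 0.16 (adjusted p = 0.0490), a call lost in 17 of 22 other settings, including without any single room-temperature array, without WT cold replicate 3 and without KO cold replicate 2 or 3, with values of 0.74 to 0.91, and 0.53 for the mean of its probe sets (adjusted p = 0.109). It rose with cold in WT by 0.97 ± 0.16 (adjusted p = 0.00130). Of the 12 macrophage markers, 0 passed between the genotypes at room temperature, where 0.55% of all genes did, with a median difference of 0.72. With cold in WT 6 of them rose, where 9.39% of all genes did. The part of these markers in the Alox5ap values was not tested. Lta4h, which makes leukotriene B4, fell with cold in KO by 0.63 (adjusted p = 0.0149). In WT it averaged 6.93 in the cold and 7.20 at room temperature and did not pass. The dipeptidases Dpep2 and Dpep1 trim leukotriene D4. Dpep2 rose in the cold by 1.38 ± 0.37 in KO (adjusted p = 0.0197). In WT it averaged 4.35 in the cold and 3.29 at room temperature, in the same direction, and did not pass. Dpep1 rose by 0.57 in WT (adjusted p = 0.0125), whereas in KO it averaged 9.02 in the cold and 9.13 at room temperature. Dpep2 did not pass without KO room-temperature replicate 1 (1.15) or 2 (1.29) or KO cold replicate 2 (1.39) or 3 (1.03), and Dpep1 not without WT cold replicate 2 (0.54).

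Of 12 partners of the epidermal lipoxygenases, Abhd5 was the one that passed. It rose with cold, as did 8.34% of all genes in KO and 9.39% in WT, so the count is near those shares. It encodes an activator of adipose triglyceride lipase and acts in skin ceramide synthesis as well. Abhd5 rose with cold by 0.98 ± 0.13 in KO (adjusted p = 0.000237) and by 0.97 ± 0.13 in WT (adjusted p = 0.000298). Of the 6 other prostanoid synthases measured, Ptges3, a cytosolic prostaglandin E synthase and Hsp90 co-chaperone, rose with cold in WT by 0.65 (adjusted p = 0.0312). That call was lost without WT room-temperature replicate 1 (0.58) or 2 (0.63) and without WT cold replicate 1 (0.51) or 3 (0.62). In KO Ptges3 averaged 3.47 in the cold and 3.73 at room temperature and did not pass.

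**Figure D3:**
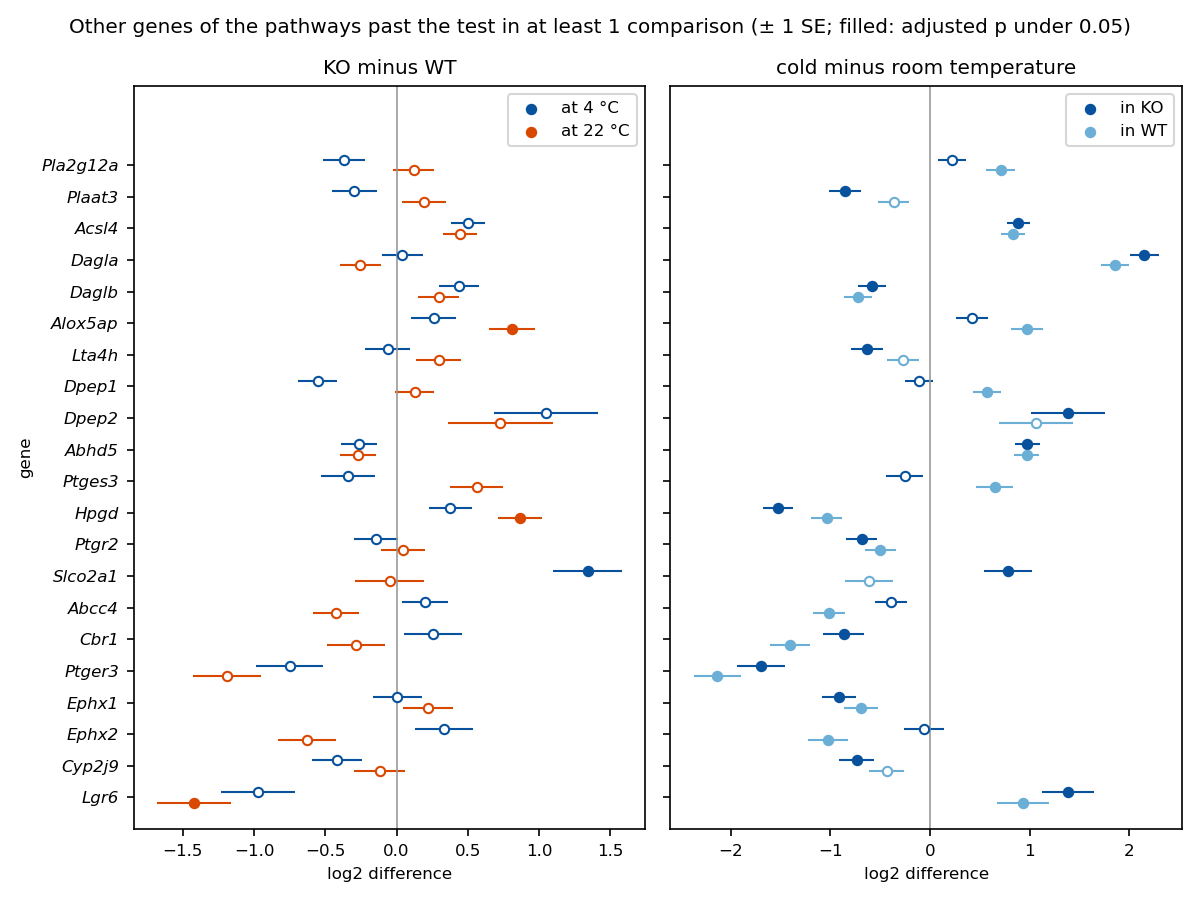
Log2 difference (x axis) of each pathway gene that passed in any comparison (rows), with KO minus WT at both temperatures and cold minus room temperature in both genotypes. Filled points passed and open points did not. Dagla lay near 2 and Ptger3 near -2 for cold in both genotypes.

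Of 6 measured genes that break down or transport prostaglandins, 1 rose and 3 fell with cold in KO, where 8.34% of all genes rose and 10.8% fell. In WT 4 fell and 0 rose, where 7.98% of all genes fell and 9.39% rose. By limma 6 of the 6 were at an unadjusted p under 0.05 for cold in KO, against 29.8% of all genes. For cold in WT 5 of the 6 were, against 28.9%. Hpgd encodes the dehydrogenase that starts the inactivation of prostaglandins. It read 5.04, 5.26 and 5.60 in KO cold, 5.03, 4.98 and 4.76 in WT cold, 6.79, 6.68 and 7.01 in KO at room temperature and 5.95, 5.94 and 5.99 in WT at room temperature. The KO room-temperature arrays were the highest and the cold arrays of both genotypes the lowest. Hpgd fell with cold by 1.52 ± 0.15 in KO (adjusted p = 5.126e-05) and by 1.04 ± 0.15 in WT (adjusted p = 0.000692). It was higher in KO at room temperature by 0.87 ± 0.15 (adjusted p = 0.0287), a call lost without any single room-temperature array, with values of 0.77 to 0.94.

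The carbonyl reductase gene Cbr1, whose product converts prostaglandin E2 to F2alpha, fell with cold by 0.87 in KO (adjusted p = 0.00937) and 1.41 in WT (adjusted p = 0.000555). Ptgr2, a 15-keto-prostaglandin reductase, fell by 0.69 in KO (adjusted p = 0.00794) and 0.50 in WT (adjusted p = 0.0445). The WT call was lost without WT room-temperature replicate 1 (-0.501) or 3 (-0.37), any WT cold array (-0.54 to -0.45) or replicate 2 of either KO group (-0.497), and was -0.33 with the muscle covariate (adjusted p = 0.173). The exporter Abcc4 fell by 1.01 in WT (adjusted p = 0.00104). In KO it averaged 6.31 in the cold and 6.70 at room temperature and did not pass. Slco2a1 encodes the transporter that takes prostaglandins into cells for breakdown. It read 7.02, 7.20 and 7.16 in KO cold, 6.07, 5.29 and 5.999 in WT cold, 6.67, 6.26 and 6.12 in KO at room temperature and 6.61, 6.65 and 5.93 in WT at room temperature. The KO cold arrays stood above all others. KO exceeded WT in the cold by 1.34 ± 0.24 (adjusted p = 0.0249), and Slco2a1 rose with cold in KO by 0.78 ± 0.24 (adjusted p = 0.0398). The genotype difference did not pass without WT cold replicate 1 (1.48), 2 (1.09) or 3 (1.45) or KO cold replicate 2 (1.31) or 3 (1.32). The cold difference did not pass without KO room-temperature replicate 2 (0.74) or 3 (0.67) or KO cold replicate 1 (0.83), 2 (0.75) or 3 (0.76).

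Among 7 prostanoid receptors, Ptger3 alone passed, with a fall in the cold, where 10.8% of all genes fell in KO and 7.98% in WT. Its product is the inhibitory EP3 receptor for prostaglandin E2, known in adipocytes for restraining lipolysis. It read 5.15, 5.11 and 5.63 in KO cold, 6.04, 6.43 and 5.68 in WT cold, 7.21, 7.10 and 6.67 in KO at room temperature and 8.58, 8.01 and 7.96 in WT at room temperature. The 4 groups did not overlap and stood in that order, lowest in KO cold and highest in WT at room temperature. Ptger3 fell with cold by 1.69 ± 0.24 in KO (adjusted p = 0.000415) and by 2.13 ± 0.24 in WT (adjusted p = 0.000120). KO minus WT at room temperature was -1.19 ± 0.24 and did not pass (adjusted p = 0.0517).

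Of 5 receptors of lipoxygenase products, 1 passed. At room temperature 0.284% of all genes were lower in KO, and with cold 8.34% rose in KO and 9.39% in WT. The gene was Lgr6, described as a receptor of the lipoxygenase product maresin 1. It read 9.28, 8.58 and 8.13 in KO cold, 9.55, 9.56 and 9.80 in WT cold, 7.63, 6.82 and 7.39 in KO at room temperature and 8.65, 8.82 and 8.64 in WT at room temperature. KO arrays were lower than WT arrays at each temperature, and cold arrays were higher than room-temperature arrays in each genotype. Room-temperature Lgr6 was lower in KO than in WT (KO minus WT -1.42 ± 0.26, adjusted p = 0.0332), a call lost in 13 of 22 other settings, among them without any WT array, without KO room-temperature replicate 2 or 3 and without KO cold replicate 2. Over the fits without 1 array the difference was -1.60 to -1.19. It rose with cold by 1.38 ± 0.26 in KO (adjusted p = 0.00278) and by 0.93 ± 0.26 in WT (adjusted p = 0.0275), and the value in WT did not pass without any single WT array (0.85 to 0.99).

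Of 6 genes in the list of epoxide hydrolases and epoxygenases, 2 fell with cold in each genotype, where 10.8% of all genes fell in KO and 7.98% in WT. Only Ephx1 passed in both genotypes. Ephx1, the microsomal epoxide hydrolase gene, fell by 0.91 in KO (adjusted p = 0.00284) and 0.69 in WT (adjusted p = 0.0152). Without WT room-temperature replicate 3 the WT value was -0.54 (adjusted p = 0.0601), and with the muscle covariate -0.51 (adjusted p = 0.0610). Cyp2j9, a gene of the Cyp2j family of cytochromes P450, fell by 0.74 in KO (adjusted p = 0.0112). Without KO room-temperature replicate 3 the value was -0.59 (adjusted p = 0.0501). In WT Cyp2j9 averaged 4.43 in the cold and 4.87 at room temperature. Ephx2, the soluble hydrolase of fatty acid epoxides, fell by 1.03 in WT (adjusted p = 0.00428). In KO Ephx2 averaged 9.49 in the cold and 9.55 at room temperature.

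The genes most like Aloxe3 and Ptgds over the 12 arrays were taken by Pearson's r among 5508 genes with a mean of at least 4 and a range of at least 1. All the points share the 12 arrays and their 4 groups, so r describes the group pattern and carries no p. For Aloxe3 they were Itga3, an integrin subunit (0.963), Zyx, the focal adhesion protein zyxin (0.961), Cyth3, a guanine exchange factor for ARF proteins (0.959), Prg4, the lubricant proteoglycan lubricin (0.951), and Tet2, a DNA demethylase (0.951). Itga3 rose with cold by 2.21 ± 0.21 in KO and 1.09 ± 0.21 in WT, and Prg4 by 2.37 ± 0.29 in KO, against 0.43 ± 0.29 in WT.

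For Ptgds the most similar were Nudt4 (0.973), a diphosphoinositol phosphatase, Cox6b2 (0.952), a cytochrome c oxidase subunit known from testis, Cdhr5 (0.945), a cadherin of the intestinal brush border, Them7 (0.942) and St8sia6 (0.940), a sialyltransferase. Cdhr5 was higher in KO than in WT by 2.32 ± 0.13 at room temperature and by 2.505 ± 0.133 in the cold. Them7 was higher by 2.13 ± 0.17 at room temperature and 2.12 ± 0.17 in the cold.

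**Figure D4:**
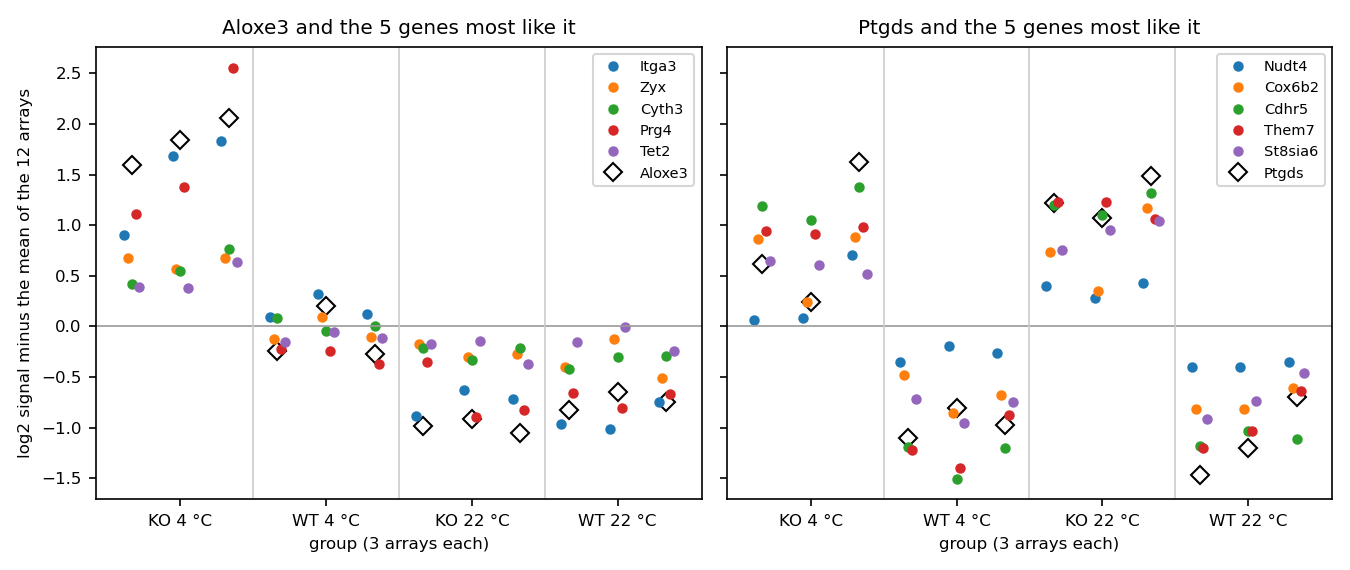
Log2 signal minus the mean of the 12 arrays (y axis) for Aloxe3 (left) and Ptgds (right), drawn as diamonds, and for the 5 genes most like each, drawn as points, with groups in the order KO cold, WT cold, KO room temperature and WT room temperature. The left panel is high in the KO cold arrays, and the right panel is higher in both KO groups than in both WT groups.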

How the data were processed

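Biotin-labelled cDNA from 400 ng of RNA was hybridised to 12 whole-transcript arrays. The authors deposited log2 signals per probe set, made with the oligo package and RMA per the submitters' processing notes, without versions; RMA corrects background, sets all arrays to 1 distribution and summarises probes, so shifts of the whole transcriptome are not visible. Of 41345 probe sets, 23521 carried 1 symbol in the platform annotation and were used, 1814 carried several and 16010 none. The brightest stood for each of 1082 genes with several, and dim genes were kept.

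The limma package 3.58.1 in R 4.3.3 fitted 1 mean per group to all 12 arrays (eBayes, two-sided), with Benjamini-Hochberg adjustment over 22180 genes in each of 5 comparisons; the fit was tested on simulated data. The members, gene lists and tests were chosen with earlier results of these data known. The text names the members, the checks Zbtb7b, Ucp1 and Alb, up to 4 genes past the threshold per list and comparison, the 3 measured genes on each side of Aloxe3 and Ptgds, and the 5 genes most like each. Alternatives were 10 other settings and 12 fits that each left out 1 array. Of the 15 cell type lists, the text gives those that bear on a member or on the tissue.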

Additional observations from a re-analysis of the deposited data

Results flagged for a closer look

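Aloxe3 was picked out because its response to cold differed between the genotypes in the interaction term of the limma model. Its log2 signal was higher in the cold by 2.82 ± 0.16 (SE) in KO and by 0.64 ± 0.16 in WT, a difference of 2.18 ± 0.22. Over the 12 fits without 1 array and the 8 other settings that gave this value, the difference between the responses was 2.07 to 2.34. The filter on a mean signal of at least 5 left Aloxe3 out, and the 6 arrays of a comparison alone give no interaction. All 3 KO arrays in the cold lay above all 9 other arrays. The gene was known to differ from earlier results of these data, so this is a description.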

How the results depend on the processing

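Each alternative changed 1 choice. In the main fit the enzymes past the threshold for KO minus WT and for the interaction were only Aloxe3 and Ptgds. Both were chosen on such differences, so those counts are a description, as is the part of Aloxe3 in the count for cold in KO. Same-numbered arrays of different groups did not deviate together (r of -0.537 to 0.451), so their numbers were not taken as pairs. With the replicate number as a block, the counts of the 9 enzymes past the threshold were 1, 2, 2, 2 and 1 (KO minus WT at room temperature and in the cold, cold in KO and in WT, interaction), as in the fit without it; the number of pathway genes for KO minus WT at room temperature was 0 instead of 3. Testing every probe set on its own gave 1 enzyme for KO minus WT in the cold and 1 for cold in WT, and 0 pathway genes for KO minus WT at either temperature. Genes with a mean of at least 5, which keeps 2 of the 9 enzymes, gave 1 enzyme for KO minus WT in the cold, 0 for cold in KO, cold in WT and the interaction, and 3 pathway genes for KO minus WT in the cold. Fitting the 6 arrays of a comparison alone gave 1 enzyme for KO minus WT in the cold and 1 for cold in KO, and 0 pathway genes for KO minus WT at either temperature. The muscle list as a covariate left 1 enzyme for cold in WT and 1 pathway gene for KO minus WT at room temperature. Cyclic loess and a trended, robust spread each gave 2 pathway genes for KO minus WT in the cold, and array weights 4. Leaving out 1 array gave 1 to 2 enzymes for KO minus WT at room temperature, 1 to 2 in the cold, 1 to 3 for cold in KO and 0 to 2 for cold in WT, and 0 to 3 and 0 to 2 pathway genes for KO minus WT at room temperature and in the cold. Over all genes, KO minus WT in the cold gave 202, with 36 to 289 without 1 array and 32 to 397 in the other settings, KO minus WT at room temperature 122, with 50 to 164 and 37 to 167, and the interaction 6, with 3 to 20 and 3 to 26.

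Signs turned in values that did not pass in either setting. Median centring gave -0.0218 for Alox15 at room temperature (KO minus WT) and 0.0078 for the Ptges interaction, cyclic loess gave 0.0724 for that interaction, and the muscle covariate gave 0.11 for Ptgs2 at room temperature. Without 1 array, KO minus WT at room temperature ran over -0.35 to 0.20 for Alox12 and -0.14 to 0.25 for Alox15. In the cold it ran over -0.0412 to 0.48 for Alox12, -0.0449 to 0.12 for Alox12b and -0.10 to 0.36 for Alox15. Cold in KO ran over -0.0274 to 0.36 for Alox15, -0.055 to 0.48 for Ptges and -0.15 to 0.23 for Ptgs2. Cold in WT ran over -0.23 to 0.0695 for Alox12b, -0.008 to 0.38 for Ptgds and -0.13 to 0.32 for Alox15. The interaction ran over -0.31 to 0.22 for Ptges, -0.16 to 0.30 for Alox15 and -0.0848 to 0.17 for Alox5. The causes were not tested. Signals near the array medians limit what can be seen for the 7 enzymes that averaged under 4.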

Other observations

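In the gene order of GRCm38.p6, the nearest measured genes around Aloxe3 were Hes7, Per1 and Vamp2 on one side and Alox12b, Alox8 and Gucy2e on the other. None of these 6 passed between KO and WT at either temperature by limma. Of all genes only 0.55% passed at room temperature and 0.911% in the cold, so this is no result about the neighbours. Per1, a clock gene, rose with cold in KO by 0.52 ± 0.16 (adjusted p = 0.0393) and was 0.42 higher in WT (adjusted p = 0.0975). Hes7, a repressor of the segmentation clock, fell with cold in WT by 0.87 ± 0.23 (adjusted p = 0.0219).

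Around Ptgds the nearest measured genes were Clic3, Paxx and Abca2 on one side and Lcn12, C8g and Fbxw5 on the other. None of the 6 passed between KO and WT, where 0.55% of all genes did at room temperature and 0.911% in the cold. By limma KO minus WT in the cold was -0.80 ± 0.24 for Paxx (adjusted p = 0.150) and -0.33 ± 0.14 for Abca2 (adjusted p = 0.316). In both the genotypes did not overlap in the cold, as in 20.6% of all genes, whereas the others overlapped. With cold, Abca2, a lipid transporter, fell by 1.00 ± 0.14 in KO (adjusted p = 0.000492) and by 0.60 ± 0.14 in WT (adjusted p = 0.0122). Paxx, a DNA repair factor, fell by 1.31 ± 0.24 in KO (adjusted p = 0.00224), and C8g, a lipocalin of the complement system, fell by 1.03 ± 0.27 in KO (adjusted p = 0.0189).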
